A study of Rattus norvegicus with 50 samples.

Results

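MHC class II molecules are surface proteins that hold peptide fragments of ingested material out to CD4+ T cells, and the genes described here build and load them in the rat. They are RT1-Da and RT1-Db1, the α and β chains of the RT1.D molecule, RT1-Ba and RT1-Bb, the chains of the RT1.B molecule, Cd74, the invariant chain, RT1-DMa and RT1-DMb, the chains of the peptide-exchange molecule, and Ciita, the class II transactivator. All 8 genes were found by their gene name among the non-control spots of a whole-genome rat array, where they have 10 probes and 18 spots out of 25885 gene names.

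The arrays measured RNA of the accessory lung lobe from male F344 rats, 12 weeks old per the labels. Exposed rats inhaled an aerosol of TiO2 P25 nanoparticles through the nose only, at 10 mg/m3, for 6 h on 5 days of each week over 4 weeks, and Control rats inhaled air. D0 is the day exposure ended, and D3, D28, D90 and D180 are named for the days of recovery that followed, so that 10 groups of 5 rats gave 50 arrays, 1 per rat. Setting Exposed against Control rats of one day asks how the lung transcriptome responds to the particles, and the series of days how far it recovers.

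In professional antigen-presenting cells (dendritic cells, macrophages and B cells) the α and β chains assemble in the endoplasmic reticulum around the invariant chain, which fills the peptide groove and directs the complex to endosomes. There cathepsins degrade the invariant chain, and the DM molecule exchanges its last fragment for an antigenic peptide. Transcription of these genes is switched on by CIITA, a co-activator that does not itself bind DNA but docks on the RFX and NF-Y factors at the X and Y boxes of class II promoters, and interferon gamma induces CIITA in many other cell types. In the lung, type 2 epithelial cells also carry class II molecules.

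The promoters of 4 members that passed the test on D0 are shown because these genes changed in the same direction and hold the letters of the box that NF-Y reads. Each is the 250 bases before the transcription start in RefSeq on the rat GRCr8 build, written 5′ to 3′ on the gene's own strand, with capitals marking GATTGG (Y box core, or CCAATC where the box runs the other way) and AGCAAC (part of the X box).
RT1-Da, chr20:4515165-4515414, plus strand: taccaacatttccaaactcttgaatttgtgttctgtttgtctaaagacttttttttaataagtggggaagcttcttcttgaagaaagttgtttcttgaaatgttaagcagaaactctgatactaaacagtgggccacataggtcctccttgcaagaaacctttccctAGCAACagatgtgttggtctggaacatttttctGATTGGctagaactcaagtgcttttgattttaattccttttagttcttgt
RT1-Db1, chr20:4560163-4560412, minus strand: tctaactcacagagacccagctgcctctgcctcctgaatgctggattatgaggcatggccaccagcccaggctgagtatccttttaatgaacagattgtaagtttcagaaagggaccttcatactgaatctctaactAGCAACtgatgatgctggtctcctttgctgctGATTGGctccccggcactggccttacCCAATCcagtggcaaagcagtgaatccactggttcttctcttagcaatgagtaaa
RT1-Bb, chr20:4604119-4604368, minus strand: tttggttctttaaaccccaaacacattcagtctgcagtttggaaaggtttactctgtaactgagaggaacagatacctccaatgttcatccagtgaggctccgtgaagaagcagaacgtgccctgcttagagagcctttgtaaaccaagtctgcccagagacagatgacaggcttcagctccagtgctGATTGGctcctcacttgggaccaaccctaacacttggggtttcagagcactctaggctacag
RT1-DMa, chr20:4712336-4712585, minus strand: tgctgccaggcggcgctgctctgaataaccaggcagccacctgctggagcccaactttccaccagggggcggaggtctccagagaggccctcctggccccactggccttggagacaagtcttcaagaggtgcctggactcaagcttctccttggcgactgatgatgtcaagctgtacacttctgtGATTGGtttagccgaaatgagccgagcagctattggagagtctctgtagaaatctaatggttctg

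The sequence table held 6 of the 8 members (RT1-Da, RT1-Db1, RT1-Ba, RT1-Bb, RT1-DMa and Cd74). GATTGG or CCAATC occurred in 5 of these 6, against 13.3% of all 33469 promoters of the same length searched on both strands. It began 50 bases before the start in RT1-Da, 81 in RT1-Db1 (with a reversed copy at 55), 44 in RT1-Ba, 62 in RT1-Bb and 65 in RT1-DMa. The promoter of Cd74 held neither form. AGCAAC or GTTGCT occurred in 3 of the 6 (RT1-Da, RT1-Db1 and Cd74), against 12.1% of all promoters. Both boxes stood in 2 members, RT1-Da and RT1-Db1, against 1.56% of all promoters. In RT1-Da the X box letters began 83 bases before the start, and in RT1-Db1 113 bases before it. These are matches of letters and not measured binding.

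Levels are normalized log2 signals of 1 probe per gene, the brightest where a gene has more than 1. A gene was called a DEG when limma's Benjamini-Hochberg adjusted p over all 25208 genes tested was under 0.05 and the change was at least 1.5-fold, and the count with no fold limit is given beside it. The arrays lay on 7 slides, and levels of several genes shifted from slide to slide, so each comparison was also fitted with slide as a block. In whole lung tissue, a change in the number of cells that carry a transcript and a change in RNA per cell cannot be told apart.

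RNA of most class II genes was higher in the lungs of Exposed rats on D0, D3 and D28. No member passed the test on D90 or D180 in the fit of group means. With slide as a block, 4 and 2 members did. RT1-Bb on D180 passed in 4 of 12 alternative settings, not all of which had slide as a block. On D0, RT1-Da was 1.53-fold and RT1-Bb 1.51-fold higher, both DEGs, and RT1-DMa, RT1-DMb, RT1-Db1 and Cd74 passed the test at 1.26- to 1.45-fold. On D3, 1 member was a DEG (RT1-Bb, 1.55-fold), and no member was at D28, D90 or D180. By adjusted p with no fold limit, 6 of the 7 measurable members were higher on D0, 5 on D3, 4 on D28 and none on D90 and D180, where 5 and 2 members had an unadjusted p under 0.05. Without single rats, Cd74 stayed under the threshold in 7 of 10 cases on D0 and 6 of 10 on D3. RT1-Db1 did so in 3 of 10 on D28, and the other members called on these days in every case. Leaving out single rats moved the count of DEGs on D0 to 0 (without Control rat 4 or Exposed rat 3), 1 (without Control rat 3, Exposed rat 2 or Exposed rat 5) or 4 (without Control rat 5), and that on D3 to 2 (without Exposed rat 4). Without Exposed rat 1 of D0, RT1-Db1 became a DEG beside RT1-Bb and RT1-Da (0.595). The median log2 change of the 7 was 0.54, 0.45, 0.29, 0.20 and 0.18 on the 5 days in order, beside medians over all genes between -0.01 and 0.00.

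Among all genes tested, 2.77% were over-expressed DEGs on D0, 1.98% on D3, 0.861% on D28, 0.246% on D90 and 0.246% on D180. With no fold limit, 6.93%, 4.89%, 2.44%, 0.69% and 0.635% of all genes were called higher on the same days. Every Exposed rat lay above every Control rat in 4 members on D0, 4 on D3, 3 on D28, 4 on D90 and 3 on D180. The same separation was seen in 4.76%, 3.36%, 2.23%, 2.2% and 2.77% of all genes.

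**Figure D1:**
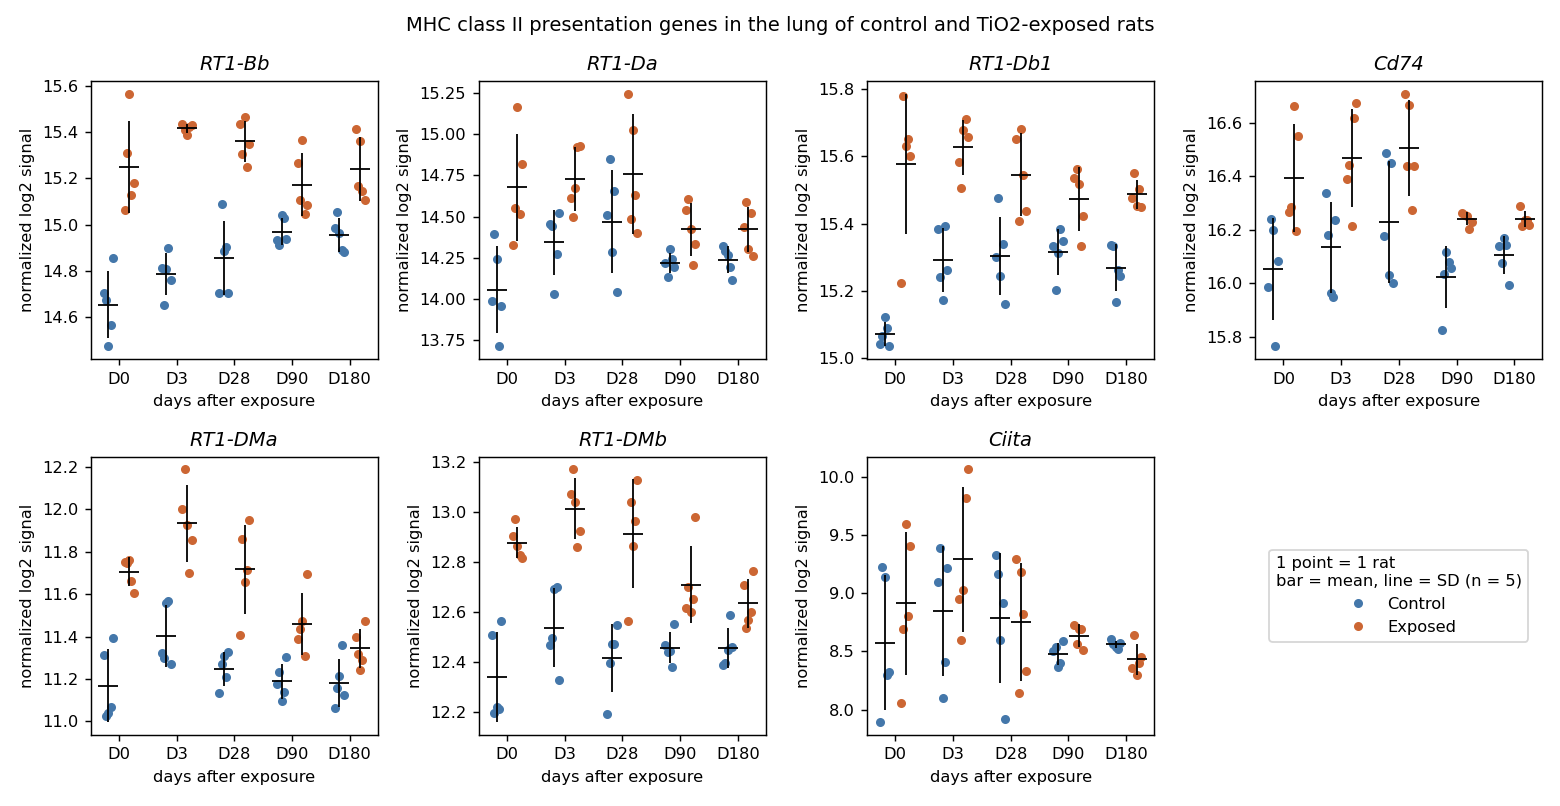
Normalized log2 signal (vertical axis) of the 7 measurable MHC class II genes by day after exposure, 1 point per rat, with the mean and SD of each group of 5. RT1-Bb of the Exposed rats lies above all Control rats of its day at each of the 5 days, while Ciita spreads over more than 1 log2 unit within the groups of D0, D3 and D28.

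RT1-Bb is the β chain of RT1.B. Its probe lies on chromosome 20 from 4730533 to 4730583 (rn4 build, minus strand, per the file annotation). On D0 the 5 Control rats read 14.70, 14.67, 14.47, 14.56 and 14.86, and the 5 Exposed rats 15.06, 15.31, 15.57, 15.13 and 15.18. The groups did not overlap, and the log2 change was 0.60 ± 0.08 (SE, limma adjusted p = 2.7e-07). Without single rats the change ran from 0.52 to 0.65. The call as a DEG was kept in 6 of 10 cases, and adjusted p stayed under 0.05 in all 10. On D3 the Control rats read 14.81, 14.65, 14.81, 14.90 and 14.76, and the Exposed rats 15.43, 15.41, 15.39, 15.42 and 15.43. The Exposed rats of D3 thus sat within a very narrow band, well above all controls, with a log2 change of 0.63 ± 0.08 (limma adjusted p = 1.3e-07).

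On D28 the Control rats read 14.70, 15.09, 14.89, 14.90 and 14.70 for RT1-Bb, and the Exposed rats 15.43, 15.30, 15.46, 15.25 and 15.35. The change was 0.50 ± 0.08 (1.42-fold, limma adjusted p = 4.1e-05), again without overlap. On D90 the Control rats ran from 14.91 to 15.04 and the Exposed rats from 15.04 to 15.37. On D180 they ran from 14.88 to 15.06 and from 15.11 to 15.41. The groups still did not overlap at these late days, but the changes of 0.20 ± 0.08 (limma adjusted p = 0.39) and 0.28 ± 0.08 (limma adjusted p = 0.077) did not pass the test.

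A second RT1-Bb probe gave 0.51 ± 0.14 on D0, 0.62 ± 0.14 on D3 and 0.59 ± 0.14 on D28 (limma adjusted p = 0.0080, 0.0016 and 0.0078). With this probe RT1-Bb was not a DEG on D0 but was on D28. The array also carries a probe for a transcript named as similar to the RT1.B β chain (LOC688090), and cross-hybridisation among class II β chain probes was not tested.

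RT1-Ba encodes the α chain that pairs with RT1-Bb. All 8 members passed the filter on dim probes, RT1-Ba with 16 arrays above the negative controls. Its only probe was well above background on 3 of 50 arrays, with a processed signal between 2.90 and 30.9, so it is described as not well above background and no change is given. Its normalized values ran from 2.46 to 4.68 over all arrays, and the Control and Exposed ranges overlapped on every day.

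RT1-Da and RT1-Db1 form RT1.D, the molecule equivalent to human HLA-DR. For RT1-Da on D0 the Control rats read 13.99, 14.39, 14.24, 13.71 and 13.96, and the Exposed rats 14.33, 14.55, 15.16, 14.52 and 14.82. A single Exposed rat fell within the Control range, and the change was 0.62 ± 0.15 (limma adjusted p = 0.0020). The call as a DEG was lost without Control rat 4 (0.53), Exposed rat 3 (0.50) or Exposed rat 5 (0.58), and adjusted p reached 0.088 when only the D0 arrays were fitted. On D3 the difference of RT1-Da was 0.38 ± 0.15 (limma adjusted p = 0.091) and on D28 0.29 ± 0.15 (limma adjusted p = 0.31), with overlapping groups.

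RT1-Db1 had the tightest controls on D0, at 15.04, 15.06, 15.12, 15.09 and 15.03, against 15.22, 15.78, 15.63, 15.65 and 15.60 in the Exposed rats. The groups did not overlap, and the change was 0.51 ± 0.07 (1.42-fold, limma adjusted p = 4.7e-07). Those D0 controls also lay below every Control rat of the later days, which read 15.16 to 15.47. On D3 the Control rats ran from 15.17 to 15.39 and the Exposed rats from 15.51 to 15.71, a change of 0.34 ± 0.07 (limma adjusted p = 6.1e-04). The changes of D28 (0.24 ± 0.07, limma adjusted p = 0.038), D90 (0.16 ± 0.07, 0.55) and D180 (0.22 ± 0.07, 0.16) were smaller. Its second probe gave 0.45, 0.49, 0.36, 0.13 and 0.14 on the 5 days, with limma adjusted p under 0.05 on D0, D3 and D28, and there the D0 controls (14.22 to 14.60) overlapped those of later days (14.33 to 14.68).

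Cd74, the invariant chain, is the chaperone of every class II α and β pair. On D0 the Control rats read 15.99, 16.24, 16.20, 15.77 and 16.08, and the Exposed rats 16.27, 16.29, 16.66, 16.20 and 16.55. The groups overlapped through 1 Exposed rat, and the change was 0.34 ± 0.10 (1.26-fold, limma adjusted p = 0.017). On D3 it was 0.33 ± 0.10 (limma adjusted p = 0.023) and on D28 0.28 ± 0.10 (limma adjusted p = 0.12). On D90 the Control rats read 15.83, 16.03, 16.12, 16.08 and 16.06, and the Exposed rats 16.26, 16.26, 16.25, 16.20 and 16.23. These groups did not overlap, yet the change of 0.22 ± 0.10 did not pass the test, whose SE is shared with the more scattered early days (limma adjusted p = 0.61).

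RT1-DMa and RT1-DMb encode the peptide-exchange molecule DM, and the pair was measured on separate probes. For RT1-DMa on D0 the Control rats read 11.31, 11.03, 11.04, 11.07 and 11.39, and the Exposed rats 11.75, 11.75, 11.76, 11.66 and 11.61. For RT1-DMb they read 12.51, 12.20, 12.22, 12.21 and 12.56, and 12.90, 12.97, 12.86, 12.83 and 12.82. In both genes the groups were apart and the same 2 Control rats, 1 and 5, were the highest controls. The changes were 0.54 ± 0.09 for each (1.45-fold, limma adjusted p = 1.5e-05 for RT1-DMa and 1.4e-05 for RT1-DMb).

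On D3 RT1-DMa changed by 0.53 ± 0.09 and RT1-DMb by 0.48 ± 0.09 (limma adjusted p = 2.6e-05 and 1.4e-04). On D28 the changes were 0.47 ± 0.09 and 0.50 ± 0.09 (limma adjusted p = 6.1e-04 and 2.6e-04), which differed from those of D0 by -0.07 ± 0.13 and -0.04 ± 0.12 (limma adjusted p = 0.88 and 0.93). In neither gene did the groups overlap on D3, D28 or D90. The changes on D90 (0.27 and 0.25) and D180 (0.16 and 0.18) did not pass the test (limma adjusted p from 0.185 to 0.728).

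Ciita, the transactivator, had the widest spread of the 7 genes within the groups of D0, D3 and D28 (SD 0.45 pooled over all groups), though not on D90 and D180. On D0 the Control rats read 7.89, 9.23, 9.14, 8.30 and 8.32, and the Exposed rats 8.06, 8.69, 9.60, 8.81 and 9.41. On D3 they read 9.10, 9.39, 8.10, 8.41 and 9.22, and 8.95, 8.60, 9.03, 9.82 and 10.06. The groups overlapped on every day, and no change passed the test, the D0 value being 0.34 ± 0.28 and the D3 value 0.45 ± 0.28 (limma adjusted p = 0.56 and 0.38). Slide accounted for 79.9% of the variance of Ciita over the 50 arrays, against 4.65% for RT1-Bb and 20.1% to 42.4% for the other members.

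**Figure D2:**
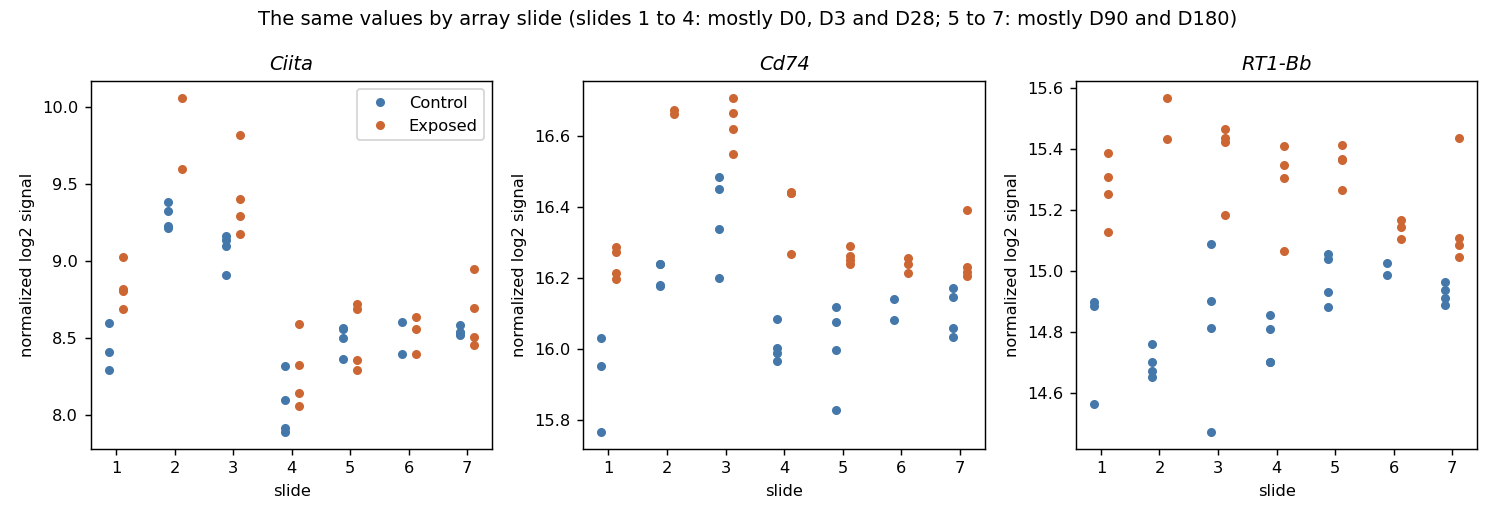
Normalized log2 signal (vertical axis) of Ciita, Cd74 and RT1-Bb by array slide, 1 point per rat, Control and Exposed side by side. Ciita follows the slide, with slide means from 8.17 on slide 4 to 9.47 on slide 2, while RT1-Bb keeps slide means between 14.96 and 15.17 with every Exposed rat above every Control rat of the same slide.

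With slide as a block, the SE of Ciita fell to 0.08 and its change on D3 was 0.65 ± 0.08 (1.57-fold, limma adjusted p = 1.7e-07), a DEG. On D0 it was 0.24 ± 0.08 (limma adjusted p = 0.017), and on D28 0.23 ± 0.08 (limma adjusted p = 0.045), where the unblocked value had the other sign (-0.03). On the slides that held both groups of a day, Exposed rats had more Ciita signal on 3 of 4 slides on D0, 4 of 4 on D3, 3 of 3 on D28 and D90 and 0 of 3 on D180. On D180 the within-slide differences ran from -0.24 to -0.08, and the blocked change was -0.13 ± 0.08 (limma adjusted p = 0.47).

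Under the slide block all 7 members passed adjusted p on D0, on D3 and on D28, with log2 changes of 0.24 to 0.60, 0.35 to 0.65 and 0.23 to 0.51. On D90, 4 members passed (Cd74, RT1-DMa, RT1-DMb and RT1-Db1, limma adjusted p = 0.0062, 0.0044, 0.010 and 0.037). On D180, 2 passed (RT1-Bb 0.28 ± 0.08, limma adjusted p = 0.034, and RT1-Db1 0.19 ± 0.05, limma adjusted p = 0.012). Of all genes, 13.5% were called higher in this fit on D0, 9.26% on D3, 7.05% on D28, 2.63% on D90 and 2.68% on D180. Within single slides, the Exposed mean was the higher in 27 of 28 member-by-slide values on D0, 28 of 28 on D3, 21 of 21 on D28 and D90 and 18 of 21 on D180, the 3 exceptions of D180 all being Ciita. With the days of a slide pooled, a count made after the values were seen, every Exposed rat lay above every Control rat on all 7 slides in Cd74, RT1-Bb and RT1-DMb, on 6 in RT1-DMa and RT1-Db1, on 5 in RT1-Da and on 3 in Ciita, while 0.312% of all genes were apart on all 7.

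**Figure D3:**
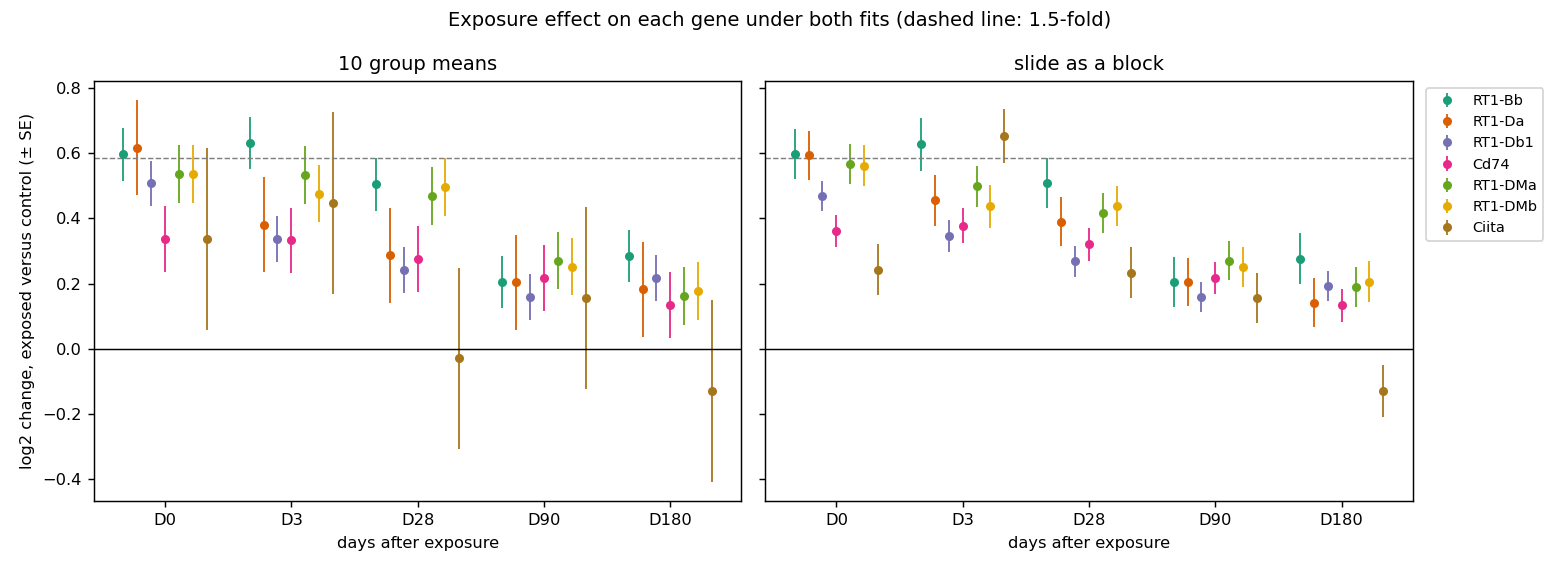
Log2 change of each gene, Exposed versus Control, ± SE (vertical axis), by day after exposure, from the fit of 10 group means (left) and with slide as a block (right). The dashed line is 1.5-fold. The changes lie between 0.34 and 0.62 on D0 and between -0.13 and 0.28 on D180 in the left panel, and the SE of Ciita shrinks from 0.28 to 0.08 in the right panel.

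Whether the exposure effect differed from that of D0 was tested directly. On D90 it was lower than on D0 by 0.39 ± 0.11 in RT1-Bb (limma adjusted p = 0.037) and by 0.35 ± 0.10 in RT1-Db1 (limma adjusted p = 0.033), and in no other member. These 2 differences were under 1.5-fold, and with the second probe of each gene they were -0.27 (limma adjusted p = 0.70) and -0.31 (limma adjusted p = 0.080). Control means of D0 and D90 were 14.65 and 14.97 for RT1-Bb and 15.07 and 15.315 for RT1-Db1. Exposed means of these days were 15.25 and 15.17 for RT1-Bb and 15.58 and 15.47 for RT1-Db1. Leaving out single arrays kept RT1-Bb's difference under the threshold in 10 of 20 cases, with values from -0.44 to -0.31, and that of RT1-Db1 in 8 of 20, with values from -0.44 to -0.30. No member's effect on D3, D28 or D180 differed from D0 by adjusted p, the D180 differences running from -0.46 to -0.20 with 5 unadjusted p under 0.05.

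Among all genes, the effect was lower than on D0 in 0.607% (D3), 1.54% (D28), 2.19% (D90) and 2.07% (D180). With slide as a block, 5 members had a lower effect on D90 than on D0 (RT1-Bb, RT1-Da, RT1-Db1, RT1-DMa and RT1-DMb, by 0.30 to 0.39), and all 7 on D180, by 0.23 to 0.45. No member's effect was lower on D3 or D28 in that fit, and Ciita's was higher on D3 by 0.41 ± 0.11 (limma adjusted p = 0.033). The shares of all genes with a lower effect were then 2.02%, 4.07%, 6.53% and 6.25% on the 4 days. Control rats of D28 and D3 did not differ in any member by adjusted p, with log2 differences from -0.15 to 0.12, where 1.49% of all genes did.

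Once slide and group means were taken out, the rat-to-rat values of the 2 DM chains correlated most (Pearson r = 0.81 over 50 arrays), followed by RT1-Bb with Cd74 (0.77) and RT1-Bb with RT1-Da (0.67). Those of Ciita had r between 0.03 and 0.23 with the other members. These are descriptions over arrays that share normalization and slides.

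With slide means alone taken out, the 5 genes outside the 8 whose 50 values were most like the members' mean were Prkar1b (r = 0.96), LOC688090 (0.96), Fcrl2 (0.96), Brms1l (0.95) and Matk (0.95), out of 19383. With group means also taken out they were LOC681309 (0.85), RGD1562690 (0.76), Muc1 (0.73), Tuba1c (0.72) and LOC688090 (0.70). LOC688090, the RT1.B β-like transcript, was in both sets.

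Other genes of the class II pathway were counted from a list of their own. Of 20 measured (partner class II chains, cathepsins, RFX and NF-Y subunits, co-stimulatory molecules and transport genes), 3 were DEGs on D0, 1 on D3 and none later, all over-expressed, with a median log2 change of 0.21 on D0 and 0.15 on D3. The D0 DEGs were Cd86, the co-stimulatory ligand of CD28 (0.84 ± 0.21, limma adjusted p = 0.0037), Ifi30, the lysosomal thiol reductase that unfolds antigens (0.73 ± 0.17, limma adjusted p = 0.0018), and RT1-DOa, a chain of the DM inhibitor DO (0.66 ± 0.11, limma adjusted p = 3.4e-05). Ifi30 was also the DEG of D3 (0.59 ± 0.17, limma adjusted p = 0.015). With slide as a block Cd86 was a DEG on D3 too (0.74 ± 0.11, limma adjusted p = 3.8e-06), where the unblocked value was 0.55 ± 0.21 (limma adjusted p = 0.088). By adjusted p alone, the blocked fit called 2 of the 20 lower on D0, 1 on D3 and 1 on D28, beside 9, 8 and 8 higher.

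By adjusted p with no fold limit, 6 of the 20 were higher on D0, 4 on D3, 4 on D28, 1 on D90 and 1 on D180, and the genes under 1.5-fold are named here after their values were seen. Lgmn, the lysosomal asparaginyl endopeptidase that makes the first cuts in the invariant chain, changed by 0.29 ± 0.07, 0.32 ± 0.07 and 0.24 ± 0.07 on D0, D3 and D28 (limma adjusted p = 0.0014, 4.8e-04 and 0.025). March1, the ubiquitin ligase that draws class II molecules back from the surface, changed by 0.51 ± 0.14 on D0 (limma adjusted p = 0.0084), and Cd274, the inhibitory ligand PD-L1, by 0.51 ± 0.15 (limma adjusted p = 0.012). Cd83, which opposes March1, changed by 0.33 ± 0.08 on D3 and 0.32 ± 0.08 on D28 (limma adjusted p = 0.0035 and 0.015).

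RT1-DOa passed adjusted p on D90 and D180 in the fit without slide, in which no member did (with slide as a block, 4 and 2 members did). Its change was 0.57 ± 0.11 on D28, 0.53 ± 0.11 on D90 and 0.54 ± 0.11 on D180 (limma adjusted p = 0.0013, 0.0082 and 0.0070), each just under 1.5-fold, with 0.32 ± 0.11 on D3 (limma adjusted p = 0.063). RT1-DOb, its partner, read 0.21 ± 0.10 on D0 and 0.49 ± 0.10 on D28 (limma adjusted p = 0.21 and 0.0023). The protease Ctss, which trims the invariant chain, read 0.17 ± 0.06 on D0 and 0.26 ± 0.06 on D3 (limma adjusted p = 0.072 and 0.0037). Rfx5, a subunit of the X box factor, read 0.24 ± 0.23 on D0 (limma adjusted p = 0.65).

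Of 14 genes of the interferon gamma axis, 3 were over-expressed DEGs on D0, 2 on D3 and none later, and with slide as a block 4 on D0 (Socs1 added, 0.88 ± 0.29, limma adjusted p = 0.019), 2 on D3 and 1 on D28 (Cxcl10, 0.89 ± 0.27, limma adjusted p = 0.027). Cxcl10 and Cxcl11, chemokines that recruit CXCR3+ T cells, changed by 1.19 ± 0.29 and 1.83 ± 0.31 on D0 and by 2.29 ± 0.29 and 2.72 ± 0.31 on D3 (limma adjusted p = 0.0029, 3.0e-05, 1.2e-07 and 1.4e-08). Cxcl11 was well above background in 3 of 5 Control arrays of D0 and 4 of 5 of D3, and in all Exposed arrays of these days. Socs1 was well above background in 2 of 5 Control and 4 of 5 Exposed arrays of D0. Irf8, a transcription factor of dendritic cells and monocytes, changed by 0.64 ± 0.16 on D0 (limma adjusted p = 0.0032). With no fold limit, 5 genes of the axis were called on D0 and 3 on D3, the others being, named after their values were seen, the receptor chain Ifngr2 (0.52 ± 0.08 on D0 and 0.41 ± 0.08 on D3, limma adjusted p = 1.5e-06 and 1.5e-04) and the receptor kinase Jak2 (0.32 ± 0.10 on D0, limma adjusted p = 0.031). Ifng itself was well above background on 1 of 50 arrays, so no change is given. Irf1, which carries the interferon signal to the Ciita gene, read -0.001 ± 0.11 on D0 (limma adjusted p = 0.999).

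The genes of MHC class I presentation, the pathway that displays cytosolic peptides to CD8+ T cells, had no DEG on any day among 15 measured. Their median log2 change was 0.02 on D0, 0.07 on D3, -0.04 on D28, -0.08 on D90 and -0.06 on D180, and 1 gene passed adjusted p on D3, the peptide-loading chaperone Tapbp (0.37 ± 0.10, limma adjusted p = 0.010), named after its value was seen. B2m, the light chain shared by class I molecules, read -0.06 ± 0.11 on D0 (limma adjusted p = 0.87). With slide as a block the class I list again had no DEG, and by adjusted p 2 genes were higher on D0, 1 was higher on D3 and 1 lower on D180.

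**Figure D4:**
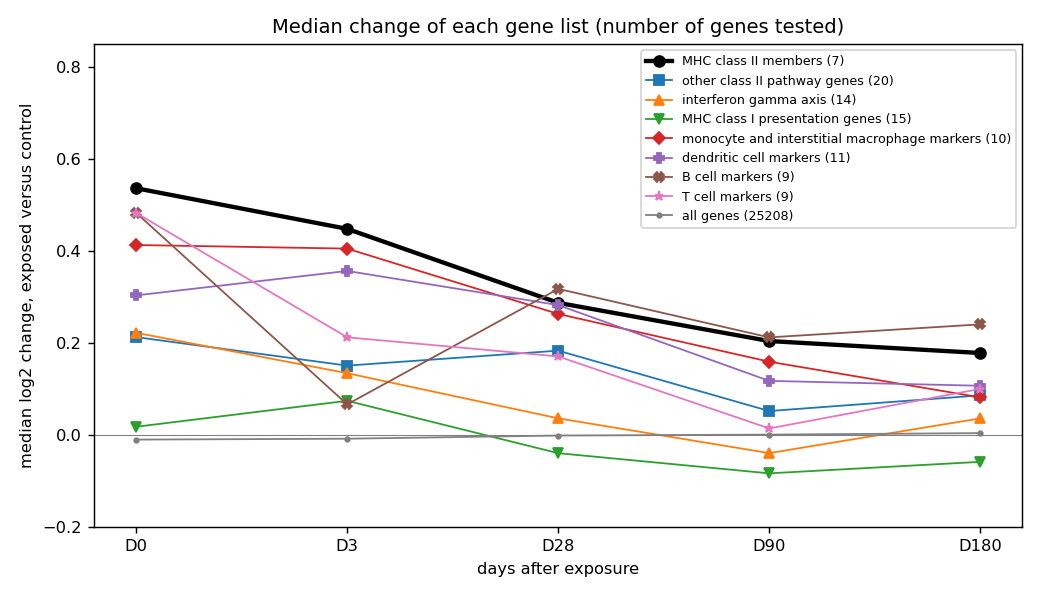
Median log2 change, Exposed versus Control (vertical axis), by day after exposure for the class II members, other gene lists and all genes tested, with the number of genes in brackets. The class II members start at 0.54 on D0 and end at 0.18 on D180, while the class I genes stay between -0.08 and 0.07.

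Markers of cells that carry class II molecules were counted on the same days, and some were higher and some lower. Of 10 monocyte and interstitial macrophage markers, 2 were DEGs on D0 (Ccr2 1.14, Cd14 0.92), and 2 on D3, Cd14 among them (0.83). Their mean level (log2, each gene centred on its mean over all arrays) ran from -0.32 to -0.18 in Control and from 0.17 to 0.28 in Exposed rats on D0, and none of the 10 was a DEG on D28, D90 or D180. The changes ran down to -0.20 on D0 and -0.17 on D3. With slide as a block 1 of these markers was called lower on D0 by adjusted p, beside 8 higher. Of 11 dendritic cell markers, Ccl22 and Clec9a were DEGs on D0 (1.51 and 0.66) and on D3 (1.49 and 0.77), and Ccl22 alone on D28 (0.61, not a DEG with slide as a block), while the list ran down to -0.67 on D0 and -0.63 on D3. The lowest, Zbtb46, a transcription factor of conventional dendritic cells, was an under-expressed DEG with slide as a block (-0.65 ± 0.17 on D0 and -0.85 ± 0.18 on D3, limma adjusted p = 0.0039 and 6.1e-04). Its probe was well above background in 4 of 5 Control and 5 of 5 Exposed arrays of D0. On D3 it was so in 4 of 5 Control and 3 of 5 Exposed arrays. The dendritic cell list had levels of -0.35 to -0.22 in Control and -0.10 to 0.17 in Exposed rats on D0. Xcr1, which defines cross-presenting dendritic cells, was well above background on no array. Of 9 B cell markers, 1 was a DEG on D0 (Cd79b, 0.68) and 1 on D3 (Blk, 0.66), with D0 levels of -0.59 to 0.02 and -0.13 to 0.19. The B cell list ran from -0.50 to 0.68 on D0 and from -0.62 to 0.66 on D3, where Bank1 read -0.48 ± 0.17 (limma adjusted p = 0.071) and -0.40 ± 0.12 with slide as a block (limma adjusted p = 0.012). The median log2 change of the 3 lists was 0.41, 0.30 and 0.48 on D0 and 0.41, 0.36 and 0.07 on D3.

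Of 9 T cell markers, Cd3g and Cd5 were DEGs on D0 (0.67 and 0.66), with levels of -0.64 to -0.19 in Control and -0.21 to 0.24 in Exposed rats. Of 6 pan-leukocyte markers, Coro1a was a DEG on D0 (0.62), with levels of -0.30 to -0.06 and 0.02 to 0.11. The changes of that list ran down to -0.20 on D0 and -0.50 on D28, where 1 marker was called higher and 1 lower by adjusted p. Of 8 neutrophil markers, 3 were DEGs on D0 (S100a8, S100a9 and Retnlg), 2 on D3 and 1 on D28, all over-expressed. Their D0 levels were -0.22 to 0.24 in Control and 0.32 to 0.70 in Exposed rats. On D3, 4 of these markers were called higher by adjusted p and 1 lower (Fpr1, -0.40 ± 0.12, limma adjusted p = 0.022). The list's median log2 change was 0.27 on D0 and 0.38 on D3. Of 10 alveolar macrophage markers, Chi3l1 was a DEG on each of the 5 days (1.92 on D0), and Siglec1 on D3 (0.94), but the list's median change was -0.06 on D0 and -0.15 on D3. With slide as a block Car4 (-0.32 on both days) and Cd9 (-0.24 and -0.30) were called lower on D0 and D3, with limma adjusted p of 0.0028, 0.0065, 2.6e-04 and 4.1e-05. Marco and Ear1 were well above background on 11 and 9 of 50 arrays and the list had D0 levels of -0.15 to 0.13 and -0.19 to 0.32. Of 9 type 2 epithelial markers none was a DEG on any day, and their D0 levels were -0.15 to -0.06 in Control and 0.04 to 0.11 in Exposed rats. By adjusted p, 4 were higher on D0 and 3 on D3, and 5 on each of these days with slide as a block. Etv5 alone was called lower on D0 and D3 (-0.36 and -0.25, limma adjusted p = 2.8e-05 and 0.0042). The list's median log2 change was 0.20 on D0 and 0.15 on D3.

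The brightest markers of the lists included C1qb, Cd68 and Fcgr1a (monocyte and interstitial macrophage), Batf3, Clec10a and Fscn1 (dendritic cell), Bank1 and Faim3 (B cell), Cd3d, Cd3g and Cd8a (T cell), Car4, Chi3l1 and Krt79 (alveolar macrophage), Retnlg, S100a8 and S100a9 (neutrophil), Sftpa1, Sftpb and Sftpc (type 2 epithelial) and Arhgdib, Coro1a and Laptm5 (pan-leukocyte). C1qb, a complement subunit made by macrophages, changed by 0.39 ± 0.08 on D0 and 0.45 ± 0.08 on D3 (limma adjusted p = 2.6e-04 and 5.7e-05). Zbtb46, Cd9, Fpr1, Etv5 and Socs1 were chosen after their values were seen. The part of these cells in the class II changes was not tested.

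Over the 50 arrays the median processed signal was 198 to 473, and 68.7% to 84.5% of gene spots were well above background. No spot of a member was saturated or left out, and the 9 probes other than that of RT1-Ba were well above background on all arrays. D0, D3 and D28 shared slides 1 to 4 and D90 and D180 slides 5 to 7, apart from 1 Exposed rat of D3 on slide 7, so the late days cannot be told apart from their slides except through the Control rats on them.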

How the data were processed

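RNA of 50 rat lungs was hybridised to 1-colour Agilent arrays. The deposited scanner files hold intensities that, per the file headers, Agilent Feature Extraction 11.0.1.1 background-subtracted and detrended, with no scaling between arrays. The series table, used as an alternative, holds intensities quantile normalized by the authors, matched here to the median spot signal. The authors' unnamed batch correction was not applied.

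Here processed signals were put on the log2 scale, 271 probe values of outlier spots were left out without imputation, spots of a probe were averaged, and arrays were quantile normalized. Probes above the 95th percentile of negative controls on at least 5 arrays were kept (29549 of 30367), the brightest probe standing for a gene (25208 genes, 3767 with more than 1 probe). Garbled names of 84 spots were restored from the other arrays. The means of the 10 groups were fitted by limma 3.58.1 in R 4.3.3 over all arrays with Benjamini-Hochberg adjustment, and contrasts gave each day's change and its difference from D0. The number of arrays limits the precision.

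Named were all members, every DEG of the pathway lists plus fixed examples, the 3 brightest markers per cell type list, and the 5 genes most like the members. A few named genes are not reported here. Members, lists and tests were chosen with earlier results of these data known. Alternatives were 75th percentile scaling, normexp correction with offset 50, the series table, slide as a block, stricter or no filter, averaged probes, saturated spots left out, single-day fits, no fold limit, a replicate block and leaving out each array. Promoters were searched for exact letters on both strands.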

Additional observations from a re-analysis of the deposited data

Results flagged for a closer look

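In 80 gene-by-group sets of 5 rats, 3 held a rat far from the others of its group, and chance alone would mark about 1 in 20 such sets. RT1-DMb read 12.98 in Exposed rat 5 of D90, where the nearest rat read 12.70. Cd74 read 15.83 in Control rat 1 of D90, where the nearest read 16.03. RT1-Ba read 4.68 in Control rat 2 of D0, 1 of the 3 arrays on which that probe was well above background.

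The exposure effect on D90 differed from that on D0 by limma's adjusted p in RT1-Bb (-0.39 on the log2 scale) and RT1-Db1 (-0.35). For RT1-Db1 the D0 controls of this probe lay below all later controls. For RT1-Bb the D0 controls (14.47 to 14.86) lay below those of D90 (14.91 to 15.04), while the Exposed means were 15.25 and 15.17.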

How the results depend on the processing

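Among the alternative values of member changes, 769 kept their direction and their call as a DEG or not, 15 turned direction, 3 gained a call and 3 lost it. Without 1 array these numbers were 925, 44, 4 and 7. Changes under 1.5-fold that crossed adjusted p alone are among those kept. By adjusted p, Cd74 on D0 passed in 8 of 11 alternatives and RT1-Db1 on D28 in 10 of 12. RT1-Bb on D180, which did not pass in the fit of group means, passed in 4 of 12, not all with slide as a block. The DEG count on D0 (2) was 1 with probes averaged, 1 with only that day's arrays and 6 with no fold limit, and ran from 0 to 4 without single arrays. The count on D3 (1) was 2 with slide, or slide and scan date (chosen after seeing the data), as a block, 5 with no fold limit and 1 to 2 without single arrays. With no fold limit the D28 count was 4 and that of D90 minus D0 was 2. The replicate block gave 2, 1, 0, 0 and 0 DEGs on the 5 days and changed no call. Replicate numbers did not pair the rats (correlations of 25 pairs from -0.34 to 0.45, 8 over 0.1).

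Values that turned direction were small apart from Ciita on D28, which was 0.23 with slide and 0.23 with slide and scan date as a block, and -0.25 to 0.12 without single arrays. The D3 minus D0 difference of RT1-Bb was -0.00041 with 75th percentile scaling and -0.016 to 0.11 without single arrays. With the other probe, chosen after seeing the data, RT1-Bb on D28 minus D0 was 0.075 and RT1-Db1 on D3 minus D0 was 0.047. RT1-Db1 in controls of D28 against D3 was -0.0399 (75th percentile), -0.0036 (series table), -0.0048 (slide), -0.0041 (slide and scan date) and -0.0298 to 0.049 without single arrays. Cd74 on D3 minus D0 was 0.045 (normexp), 0.077 (series table), 0.017 (slide), 0.036 (slide and scan date) and -0.055 to 0.069 without single arrays. On D28 minus D0, Cd74 was 0.0035 (series table) and -0.12 to 0.011 without single arrays, and Ciita 0.018 (slide and scan date). Without single arrays, RT1-DMa ran from -0.068 to 0.054 (D3 minus D0) and -0.13 to 0.0094 (D28 minus D0), RT1-DMb from -0.097 to 0.046 (D28 minus D0), and Ciita from -0.10 to 0.29 (D3 minus D0) and -0.25 to 0.16 (controls of D28 against D3). The cause was not tested.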
